A study of Mus musculus with 6 samples.

Results

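The mRNA levels of 10 regulators of Polycomb repression and DNA methylation were compared between the Wnt4hi and Wnt4low fractions of newborn mouse islets. The genes are Ezh1, Ezh2, Eed, Suz12 and Bmi1 of the Polycomb complexes, and Dnmt1, Uhrf1, Dnmt3a, Dnmt3b and Tet1 of the DNA methylation machinery. They were found by the RefSeq transcript accession that the array design lists for each probe. No measured value enters that rule, although the set of genes was chosen with earlier results of these data known. All 10 genes were present, with 21 of the 56605 non-control probes, and they made up 10 of the 45616 genes and transcripts tested. Islets came from pups at postnatal day 1 that carried both the knock-in allele Wnt4 tm2(EGFP/cre)Svo, called Wnt4eGFPCre, and the Gt(ROSA)26Sor tm4 mTmG reporter, crossed to C57BL/6J. In these mice, Cre made from the Wnt4 locus switches the reporter from a red to a green membrane protein (mGFP) for good, so mGFP marks cells that express Wnt4 or have done so. Cells were sorted by mGFP into the positive fraction, Wnt4hi (replicates 2, 3 and 4), and the negative fraction, Wnt4low (replicates 1, 3 and 4), with 3 or 4 pups pooled for each sample. By this description both fractions share the same alleles and age, and what was compared is the history of Cre activity at P1. A supplementary legend of the study instead labels the negative side as lacking the Wnt4eGFPCre allele, and this conflict was not resolved here. The mGFP-positive fraction is not pure in β-cells by design, since the same study describes the reporter in a subset of α-cells, and the negative fraction holds every mGFP-negative cell of the dissociated islet.

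Each sample was hybridised to 1 single-colour Agilent mouse array, and all 6 arrays lay on 1 slide. Between 70.5% and 79.5% of the 59305 non-control spots were well above background on the Wnt4hi arrays and between 73.1% and 76.9% on the Wnt4low arrays, and no spot was saturated. Values below are log2 intensities after normalisation, a fold change is Wnt4hi minus Wnt4low on that log2 scale, and an unadjusted p under 0.05 in limma is the threshold the study used. Counts of genes that passed refer to that threshold, while the p printed beside a value is adjusted by Benjamini-Hochberg over all features, and every fold change has 3 arrays per group. A gene is represented by its brightest probe over the 6 arrays, and the other probes are given beside it. Intensities of different probes are not on a common scale, so levels are compared between arrays and not between genes. Wnt4 itself had a mean log2 intensity of 10.83 in Wnt4hi and 9.76 in Wnt4low, a log2 fold change of 1.08 (SE 0.27, limma, adjusted p = 0.212).

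Polycomb repressive complex 2 (PRC2) methylates histone H3 at the repressive site H3K27 through Ezh1 or Ezh2, which act only when bound to Eed and Suz12. Ezh2 is the form typical of dividing cells and Ezh1 of resting cells, and in β-cells Ezh2 is known for holding the Cdkn2a locus silent in young animals. Bmi1 belongs to PRC1, which ubiquitinates histone H2A. Uhrf1 recognises hemimethylated DNA behind the replication fork and brings in Dnmt1, which copies the methylation pattern to the new strand. Dnmt3a and Dnmt3b set new methylation, and Tet1 oxidises methylcytosine, the first step of its removal.

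The promoters of the genes that the results below turn on are shown from RefSeq on build GRCm38.p6. Each window holds the 250 bases before a listed start, 5′ to 3′ on the gene's own strand. A listed start can lie inside the annotated gene. The annotated Ezh2 gene (chr6:47530274-47595270) covers most of its window. The annotated Uhrf1 (chr17:56303337-56323486) and Dnmt3a (chr12:3801559-3914443) genes cover all of the windows printed for them. Capitals mark matches on either strand to CCAAT, the letters that NF-Y recognises and that are common in promoters of cell cycle genes, or to any of the E2F letters TTTCCCGC, TTTGGCGC, TTTCGCGC and TTTGCCGC. None of the marked matches overlap in the windows printed. Ezh2 (chr6:47595031-47595280, minus strand), Ezh1 (chr11:101226464-101226713, minus strand), the second of the Uhrf1 windows (chr17:56304063-56304312, plus strand) and the first of the Dnmt3a windows (chr12:3806730-3806979, plus strand) read as follows.
Ezh2: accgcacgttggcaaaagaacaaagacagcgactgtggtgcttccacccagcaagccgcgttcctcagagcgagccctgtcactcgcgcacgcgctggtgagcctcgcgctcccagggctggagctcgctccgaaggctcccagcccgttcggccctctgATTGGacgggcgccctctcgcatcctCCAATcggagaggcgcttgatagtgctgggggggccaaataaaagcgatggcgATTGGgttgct
Ezh1: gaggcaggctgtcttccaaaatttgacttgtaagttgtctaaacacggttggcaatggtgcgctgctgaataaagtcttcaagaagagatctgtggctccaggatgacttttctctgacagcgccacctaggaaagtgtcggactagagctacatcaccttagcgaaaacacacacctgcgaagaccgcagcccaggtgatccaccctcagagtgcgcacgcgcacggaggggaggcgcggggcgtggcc
Uhrf1: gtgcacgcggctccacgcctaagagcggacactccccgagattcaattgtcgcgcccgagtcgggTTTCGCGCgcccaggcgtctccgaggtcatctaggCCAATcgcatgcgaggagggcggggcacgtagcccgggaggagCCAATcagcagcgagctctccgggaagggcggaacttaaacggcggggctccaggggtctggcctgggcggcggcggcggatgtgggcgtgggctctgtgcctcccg
Dnmt3a: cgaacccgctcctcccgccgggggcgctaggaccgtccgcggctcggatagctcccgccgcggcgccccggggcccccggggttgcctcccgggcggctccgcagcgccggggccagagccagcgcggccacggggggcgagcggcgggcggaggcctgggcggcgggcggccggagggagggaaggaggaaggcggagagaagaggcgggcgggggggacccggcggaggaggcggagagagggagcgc

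The Ezh2 window held 3 CCAAT matches and no E2F match, the Uhrf1 window held 2 CCAAT matches and 1 E2F match, and neither motif was found in the Ezh1 or Dnmt3a windows. RefSeq gives 15 such windows for the 10 genes, because Dnmt1 and Dnmt3a have 3 and Uhrf1 has 2. The E2F letters occurred in 3 of the 15 windows, those of Suz12 and 1 each of Dnmt1 and Uhrf1, against 1.86% of all 32851 mouse windows. CCAAT occurred in 6 of the 15 windows, against 33.85% of all windows. The windows of the 10 genes were rich in CpG, the dinucleotide that Dnmt enzymes methylate, with a median of 21 CpG per window against 6 over all windows. Their median GC content was 68.4%, against 52.4% over all windows. The motif shares above were not matched for base composition. The 4 printed windows held 23 (Ezh2), 14 (Ezh1), 30 (Uhrf1) and 38 (Dnmt3a) CpG. These counts describe letters in the window only, and neither binding nor methylation was measured.

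Of the 10 genes, Ezh2 was lower in Wnt4hi and Dnmt3a was higher, and the other 8 did not pass the threshold. The 1 gene that fell stands beside 5.53% of all genes and transcripts that fell at this threshold, and the 1 that rose stands beside 5.02% that rose, and counts this small are near those shares. None of the 10 passed an adjusted p of 0.05, which 0.438% of all features did. The log2 fold changes of the 10 ran from −0.79 to 0.96, with a median of −0.15, while the median over all features was 0.072. All 10 were well above background on all 6 arrays by the chosen probe.

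**Figure D1:**
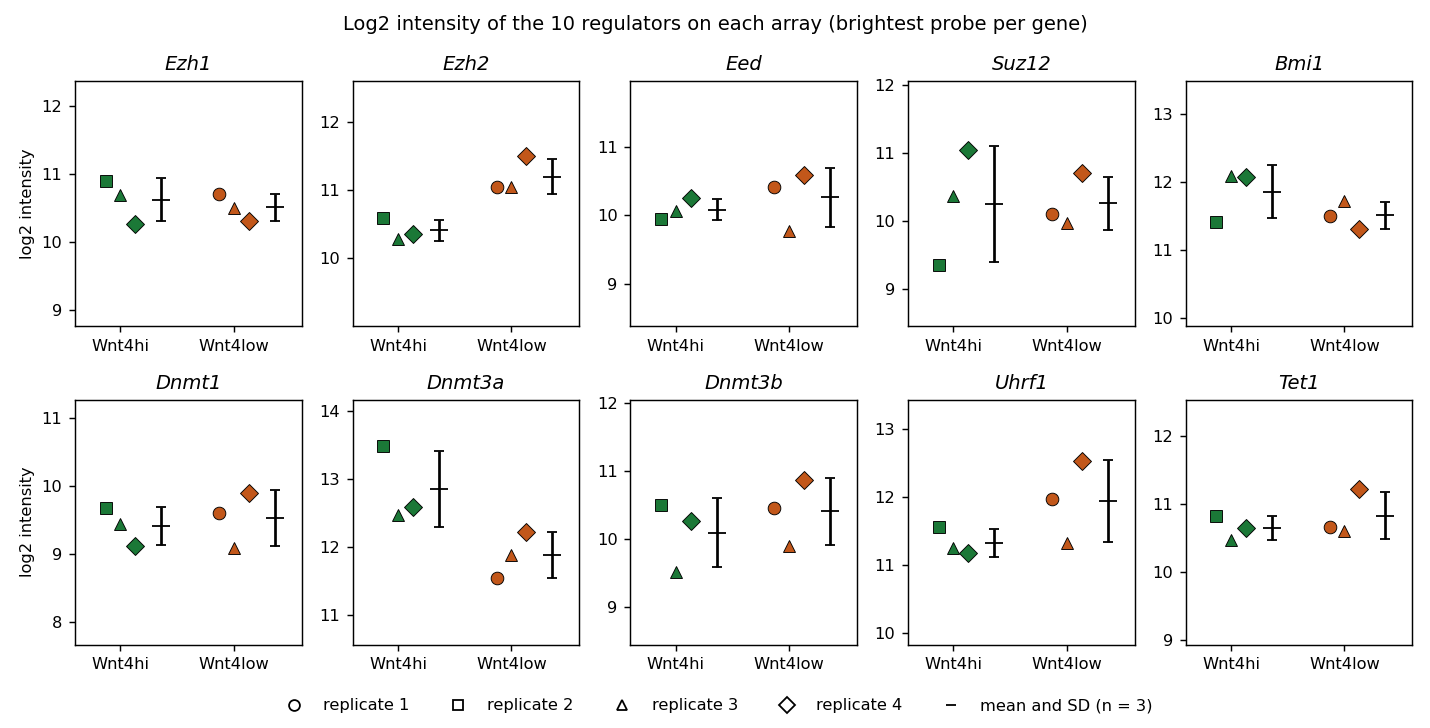
Log2 intensity of each of the 10 regulators on each array, by its brightest probe, in the Wnt4hi (green) and Wnt4low (orange) fractions. Marker shapes give the replicate number, the black bar gives the mean and SD (n = 3), and every panel spans the same range of log2 units around its own mean. The Wnt4hi and Wnt4low points are fully apart only for Ezh2, where Wnt4low is higher, and for Dnmt3a, where Wnt4hi is higher.

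Ezh2, a PRC2 methyltransferase, had log2 intensities of 10.59, 10.28 and 10.35 on the Wnt4hi arrays and 11.05, 11.05 and 11.50 on the Wnt4low arrays. Every Wnt4low array was above every Wnt4hi array, and Wnt4low replicate 4 was the highest. The log2 fold change was −0.79 (SE 0.18, 95% confidence interval −1.23 to −0.35, limma, adjusted p = 0.173), a level 1.73-fold higher in Wnt4low. Of all features, 6.44% were apart in the same direction.

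The array holds 5 probes for Ezh2, all listed under the same transcript, and all 5 had log2 fold changes below 0, from −1.50 to −0.31. The probe with the largest change had log2 intensities of 6.40, 7.99 and 8.02 in Wnt4hi and 8.64, 8.77 and 9.48 in Wnt4low (log2 fold change −1.50, limma, adjusted p = 0.332). Its Wnt4hi and Wnt4low arrays were also apart, although only 2 of its 3 Wnt4hi arrays were well above background. The other 3 probes changed by −0.87, −0.64 and −0.31 and did not pass. The first of these was well above background on 1 of 3 Wnt4hi and 2 of 3 Wnt4low arrays and the second on 2 of 3 Wnt4hi arrays, so the sizes of their changes are uncertain. Only the brightest probe and the probe at −0.31 were well above background on all 6 arrays. These 3 had overlapping arrays, and the probes of one gene report on the same samples and are not replicates of each other.

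Ezh1, the paralog that can take the place of Ezh2 in PRC2, had log2 intensities of 10.90, 10.70 and 10.27 in Wnt4hi and 10.71, 10.50 and 10.32 in Wnt4low. The ranges overlapped almost entirely, with a log2 fold change of 0.11 (SE 0.21, 95% confidence interval −0.39 to 0.62, limma, adjusted p = 0.908). The level of Ezh2 relative to Ezh1 within an array, taken from each gene's deviation from its own mean, was −0.55, −0.65 and −0.16 in Wnt4hi and 0.10, 0.31 and 0.95 in Wnt4low. The difference was −0.91 log2 units with no overlap (exact permutation test over arrays, two-sided p = 0.1, the smallest that 3 against 3 allows). It was 1 of 5 such relations, chosen after the values had been seen and Ezh2 was known to be apart, and its adjusted p was 0.167.

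Eed and Suz12, the subunits that both methyltransferases need, showed no difference past the threshold. Eed had 9.95, 10.07 and 10.25 in Wnt4hi and 10.42, 9.77 and 10.60 in Wnt4low (log2 fold change −0.18, SE 0.24, 95% confidence interval −0.77 to 0.41, limma, adjusted p = 0.872). Suz12 was the most variable of the 10 in Wnt4hi, with 9.35, 10.37 and 11.05 against 10.12, 9.97 and 10.71 in Wnt4low (log2 fold change −0.0071, SE 0.45, 95% confidence interval −1.11 to 1.09, limma, adjusted p = 0.998). Its second probe was steadier and pointed upwards (log2 fold change 0.33, limma, adjusted p = 0.629), so a Suz12 difference of about 1 log2 unit in either direction could not be seen with the brighter probe. Relative to Eed, Ezh2 was lower in Wnt4hi by −0.62 log2 units with overlapping arrays (exact permutation test, two-sided p = 0.2, adjusted 0.25), and relative to Suz12 by −0.79 (p = 0.4, adjusted 0.4).

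The 8 other PRC2 genes examined, which include the core histone-binding subunits Rbbp4 and Rbbp7, were all above background on every array, and none passed the threshold. Rbbp4 had a log2 fold change of 0.14 (SE 0.23) and Rbbp7 of −0.060 (SE 0.27), and the median of the 8 was 0.0051.

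Bmi1, the PRC1 subunit that stimulates the H2A ligase, had log2 intensities of 11.41, 12.10 and 12.07 in Wnt4hi and 11.50, 11.73 and 11.32 in Wnt4low. Wnt4hi replicates 3 and 4 lay above all Wnt4low arrays and replicate 2 did not (log2 fold change 0.35, SE 0.23, 95% confidence interval −0.22 to 0.91, limma, adjusted p = 0.711). Leaving out 1 array at a time moved the change from 0.23 (without Wnt4hi replicate 3) to 0.57 (without Wnt4hi replicate 2), and only the latter passed the unadjusted threshold. The second Bmi1 probe changed by 0.12 (limma, adjusted p = 0.929).

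Of the 22 other PRC1 genes, Yaf2 was lower in Wnt4hi and Pcgf5 was higher, and 20 did not pass, with a median log2 fold change of 0.032. These counts stand beside 5.53% of all features lower and 5.02% higher, and each ranged from 1 to 2 without 1 array. Yaf2, a bridging subunit of variant PRC1, changed by −0.58 (SE 0.16, limma, adjusted p = 0.269). Pcgf5, a Polycomb group finger protein of variant PRC1, changed by 0.59 (SE 0.18, limma, adjusted p = 0.319). The H2A ligases Rnf2 and Ring1 had log2 fold changes of −0.53 (SE 0.42) and −1.18 (SE 0.66), neither past the threshold, with Ring1 between 7.43 and 10.09 on the Wnt4hi arrays alone. No array had Cbx8 well above background.

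The 5 genes that remove Polycomb marks, the H3K27 demethylases and the PR-DUB deubiquitinase, did not pass the threshold either. The demethylase Kdm6b changed by 0.14 (SE 0.29). Kdm6a was not well above background on any Wnt4hi array and on 1 of 3 Wnt4low arrays. None of the 11 trithorax and COMPASS genes measured, which act against Polycomb by methylating histone H3 at lysine 4, passed, and their median was 0.0047.

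Of the maintenance pair, Dnmt1 did not pass the threshold. Its log2 intensities were 9.68, 9.44 and 9.12 in Wnt4hi and 9.61, 9.09 and 9.90 in Wnt4low, and the Wnt4hi range lay inside the Wnt4low range (log2 fold change −0.12, SE 0.26, 95% confidence interval −0.75 to 0.50, limma, adjusted p = 0.922).

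Uhrf1 had 11.55, 11.25 and 11.17 in Wnt4hi and 11.96, 11.31 and 12.53 in Wnt4low. Wnt4low replicates 1 and 4 lay above all Wnt4hi arrays, while Wnt4low replicate 3 lay among them (log2 fold change −0.61, SE 0.32, 95% confidence interval −1.38 to 0.16, limma, adjusted p = 0.602). The second Uhrf1 probe, listed under another transcript, passed the unadjusted threshold, with 8.73, 10.03 and 9.36 in Wnt4hi and 10.80, 9.86 and 11.95 in Wnt4low (log2 fold change −1.50, SE 0.59, limma, adjusted p = 0.426). Both probes gave Wnt4low replicate 4 as the highest array and Wnt4low replicate 3 as the lowest of its group. Leaving out 1 array at a time moved the brighter probe from −0.32 (without Wnt4low replicate 4) to −0.92 (without Wnt4low replicate 3), and only the latter passed the unadjusted threshold.

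**Figure D2:**
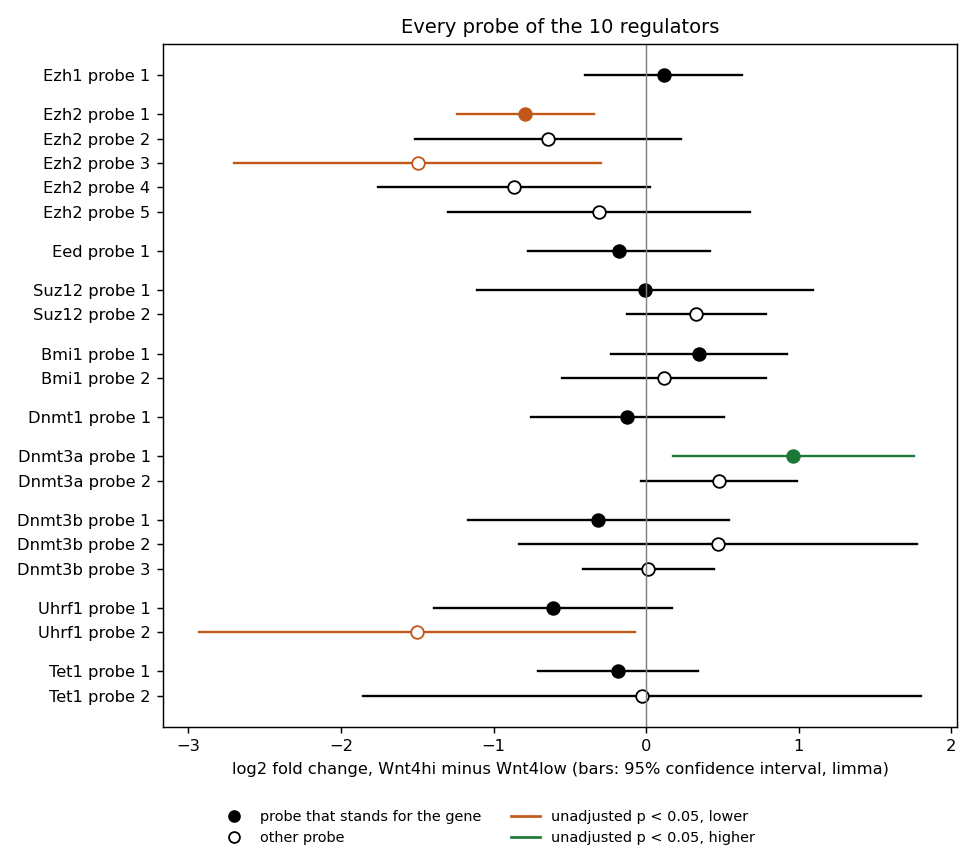
Log2 fold change (Wnt4hi minus Wnt4low, x axis) of all 21 probes of the 10 regulators, each with its 95% confidence interval from limma (n = 3 arrays per group). Filled points are the brightest probe of a gene, and coloured intervals mark unadjusted p under 0.05. All 5 Ezh2 probes and both Uhrf1 probes lie below 0 and both Dnmt3a probes above 0, while the 3 Dnmt3b probes lie on either side.

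Among all 21 probes, 3 were lower in Wnt4hi at the threshold, 2 of Ezh2 and 1 of Uhrf1, and 1 was higher, of Dnmt3a. Over all probes, 6.15% were lower and 4.84% higher.

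Dnmt3a, a de novo methyltransferase, had log2 intensities of 13.48, 12.47 and 12.58 in Wnt4hi and 11.55, 11.88 and 12.22 in Wnt4low. Every Wnt4hi array was above every Wnt4low array, and Wnt4hi replicate 2 stood about 1 log2 unit above the other Wnt4hi arrays. The log2 fold change was 0.96 (SE 0.32, 95% confidence interval 0.18 to 1.75, limma, adjusted p = 0.355), a level 1.95-fold higher in Wnt4hi. Of all features, 9.56% were apart in the same direction. The second probe, for the same transcript, had 11.76, 11.93 and 12.05 in Wnt4hi and 11.13, 11.37 and 11.80 in Wnt4low, and did not pass, with overlapping arrays (log2 fold change 0.48, SE 0.21, limma, adjusted p = 0.493). The Dnmt3a call was lost without Wnt4low replicate 1 (0.80) and without Wnt4low replicate 3 (0.96), and without Wnt4hi replicate 2 the change was 0.65 and still passed (limma, adjusted p = 0.435, within 0.249 to 0.662 over the 18 alternatives that held the gene).

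Dnmt3b, the other de novo enzyme, did not pass. Its brightest probe had 10.50, 9.53 and 10.27 in Wnt4hi and 10.46, 9.90 and 10.88 in Wnt4low (log2 fold change −0.31, SE 0.35, 95% confidence interval −1.16 to 0.54, limma, adjusted p = 0.840), and its other probes changed by 0.47 and 0.015. Relative to Dnmt3b, Dnmt3a was higher in Wnt4hi by 1.28 log2 units, and relative to Dnmt1 by 1.09 units. Both relations were among the 5 chosen after the values had been seen, with Dnmt3a already apart, so they describe these arrays and add no separate support (exact permutation test, two-sided p = 0.1 each, the smallest that 3 against 3 allows, adjusted 0.167).

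Tet1 had 10.82, 10.46 and 10.64 in Wnt4hi and 10.66, 10.59 and 11.22 in Wnt4low (log2 fold change −0.19, SE 0.21, 95% confidence interval −0.70 to 0.33, limma, adjusted p = 0.843). The groups overlapped, with only Wnt4low replicate 4 outside the Wnt4hi range. The second Tet1 probe, well above background on 2 of 3 Wnt4hi arrays, changed by −0.025 (SE 0.75) and did not pass. The related dioxygenases Tet2 and Tet3 changed by 0.21 (SE 0.28) and −0.37 (SE 0.31).

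Of the 16 partners and readers of DNA methylation, 1 was higher in Wnt4hi and none lower, beside 5.02% of all features higher. Without 1 array the number higher ranged from 0 to 2. Usp7, a deubiquitinase that binds Uhrf1 and Dnmt1, was higher in Wnt4hi by 0.53 log2 units (SE 0.19, limma, adjusted p = 0.389). The Uhrf1 paralog Uhrf2 had 13.01, 10.50 and 10.64 in Wnt4hi and 9.66, 10.29 and 10.66 in Wnt4low (log2 fold change 1.18, SE 0.71, limma, adjusted p = 0.666). Its mean in Wnt4hi was set by replicate 2, the same array that was highest for Dnmt3a. Dnmt3l, the catalytically inactive relative of the de novo enzymes, changed by 0.21 (SE 0.16).

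Targets were listed because Polycomb or DNA methylation is known to silence them in β-cells or their precursors. Of the 4 described here, Ldha and Hk1 were lower in Wnt4hi at the threshold, beside 5.53% of all features lower. The list was chosen with earlier results of these data known. Ldha, lactate dehydrogenase A, had 12.13, 10.63 and 11.07 in Wnt4hi and 12.82, 12.75 and 12.94 in Wnt4low (log2 fold change −1.56, SE 0.38, limma, adjusted p = 0.196). Hk1, a low-Km hexokinase, had 10.37, 8.45 and 8.89 in Wnt4hi and 11.51, 11.16 and 10.94 in Wnt4low (log2 fold change −1.97, SE 0.50, limma, adjusted p = 0.215). Both were apart, with Wnt4hi replicate 2 the nearest to Wnt4low, beside 6.44% of all features apart in that direction.

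Cdkn2a, the cell cycle inhibitor locus named for Ezh2, did not pass (log2 fold change 0.065, SE 0.28, limma, adjusted p = 0.967), with 7.89, 7.72 and 8.31 in Wnt4hi and 7.67, 7.59 and 8.45 in Wnt4low. Neurog3, the endocrine progenitor factor, changed by 0.32 (SE 0.29, limma, adjusted p = 0.795).

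**Figure D3:**
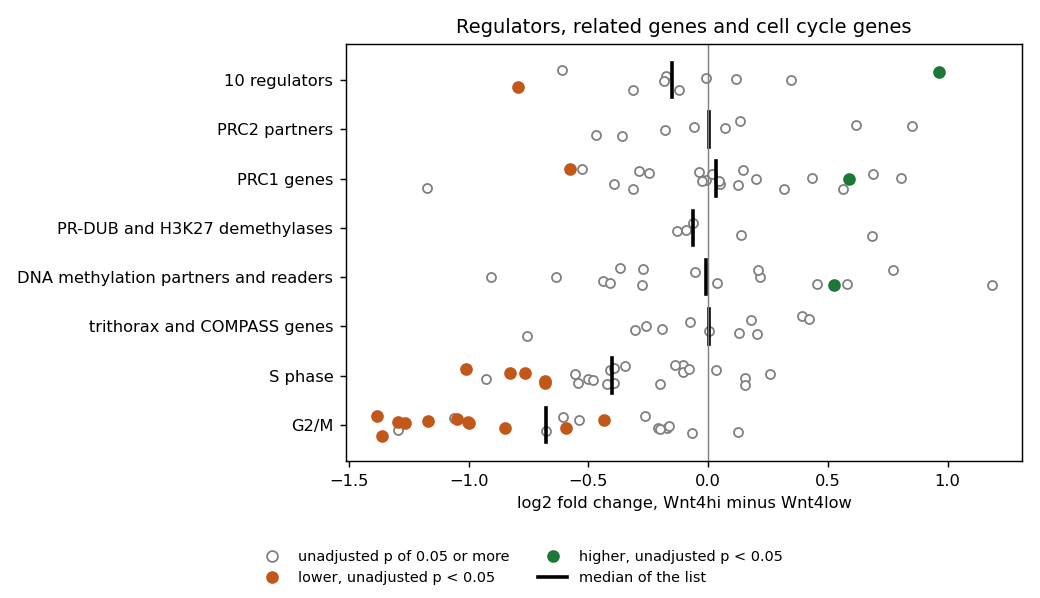
Log2 fold change (Wnt4hi minus Wnt4low, x axis) of each of the 10 regulators and of each gene in 7 related lists (rows), with the median of each list as a black bar. Filled points passed an unadjusted p of 0.05, orange for lower and green for higher in Wnt4hi. The medians of the Polycomb, trithorax and DNA methylation lists lie near 0, and those of the S phase and G2/M lists at −0.40 and −0.68.

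Ezh2, Uhrf1 and Dnmt1 are known to be more abundant in cycling cells, so cell cycle genes are given beside them. Of 24 S phase genes, 5 were lower in Wnt4hi and none higher, with a median log2 fold change of −0.40, beside 5.53% of all features lower and 5.02% higher. Of 23 G2/M genes, 11 were lower and none higher, with a median of −0.68. Pcna, the replication clamp, had 12.43, 12.84 and 13.05 in Wnt4hi and 13.66, 13.38 and 13.77 in Wnt4low (log2 fold change −0.83, SE 0.21, limma, adjusted p = 0.207). Mki67, the proliferation antigen, had 10.61, 9.89 and 11.41 in Wnt4hi and 11.96, 11.32 and 12.78 in Wnt4low, which overlapped (log2 fold change −1.38, SE 0.50, limma, adjusted p = 0.402). The S phase genes with the smallest p were Rrm1, Pcna, Mcm6 and Mcm2, with log2 fold changes between −0.83 and −0.68. The G2/M genes with the smallest p were Ccna2, Foxm1, Birc5 and Ube2c, with log2 fold changes between −1.36 and −0.85. Without 1 array the number of G2/M genes lower ranged from 2 (without Wnt4low replicate 4) to 13, and of S phase genes from 2 (without Wnt4hi replicate 4, Wnt4low replicate 1 or Wnt4low replicate 4) to 8.

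Within the Wnt4low group, the mean log2 intensity of the G2/M list was 10.30 in replicate 4, 10.18 in replicate 1 and 9.44 in replicate 3. Of the 10 regulators, Uhrf1, Dnmt1, Dnmt3b, Eed, Suz12, Tet1 and Ezh2 were likewise highest in Wnt4low replicate 4 and lowest in replicate 3. For Ezh2, replicates 1 and 3 were nearly equal. The other 3 were not, with Bmi1 highest in replicate 3 and lowest in replicate 4, Ezh1 lowest in replicate 4 and Dnmt3a lowest in replicate 1. The leukocyte and mesenchymal marker means also had the G2/M order. The endothelial mean was highest in replicate 1 and the pan-endocrine mean in replicate 3. How many of all features share the G2/M order was not counted, so it is not particular to these genes. Ezh2 was 11.05 in Wnt4low replicate 3, above every Wnt4hi array, and the G2/M mean of that array was 9.44, against 9.07 to 9.39 on the Wnt4hi arrays. The endothelial marker mean of that array was 11.54, the lowest of the Wnt4low arrays, against 8.05 to 8.65 on the Wnt4hi arrays. Uhrf1 in the same array (11.31) lay among the Wnt4hi values. These are values of 1 array, and the part of cell cycle or cell type in them was not tested.

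The fractions also differed in their cell types. All 10 endothelial markers were lower in Wnt4hi, 7 of them past an adjusted p of 0.05 with all 6 arrays, a level that 0 to 2 of all features reached without 1 array. Their mean log2 intensity was 8.05 to 8.65 on the Wnt4hi arrays and 11.54 to 12.47 on the Wnt4low arrays. Of 8 leukocyte markers 5 were lower (9.21 to 9.53 against 10.13 to 10.45), and of 7 mesenchymal markers 5 were lower (10.27 to 12.01 against 12.31 to 12.54). The pan-endocrine markers were higher in Wnt4hi for 5 of 6 (13.27 to 13.32 against 11.43 to 12.58), as were 6 of 10 β-cell markers (13.72 to 13.93 against 12.03 to 13.39) and 3 of 6 α-cell markers (12.09 to 13.12 against 9.06 to 11.56). Of 4 δ-cell markers, 2 were lower and 1 higher in Wnt4hi (10.26 to 10.78 against 10.88 to 11.57). In bulk samples such as these, fewer cells of a type and less RNA per cell cannot be told apart, and the part of cell cycle and cell type in the Ezh2, Uhrf1, Dnmt3a, Ldha and Hk1 values was not tested.

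**Figure D4:**
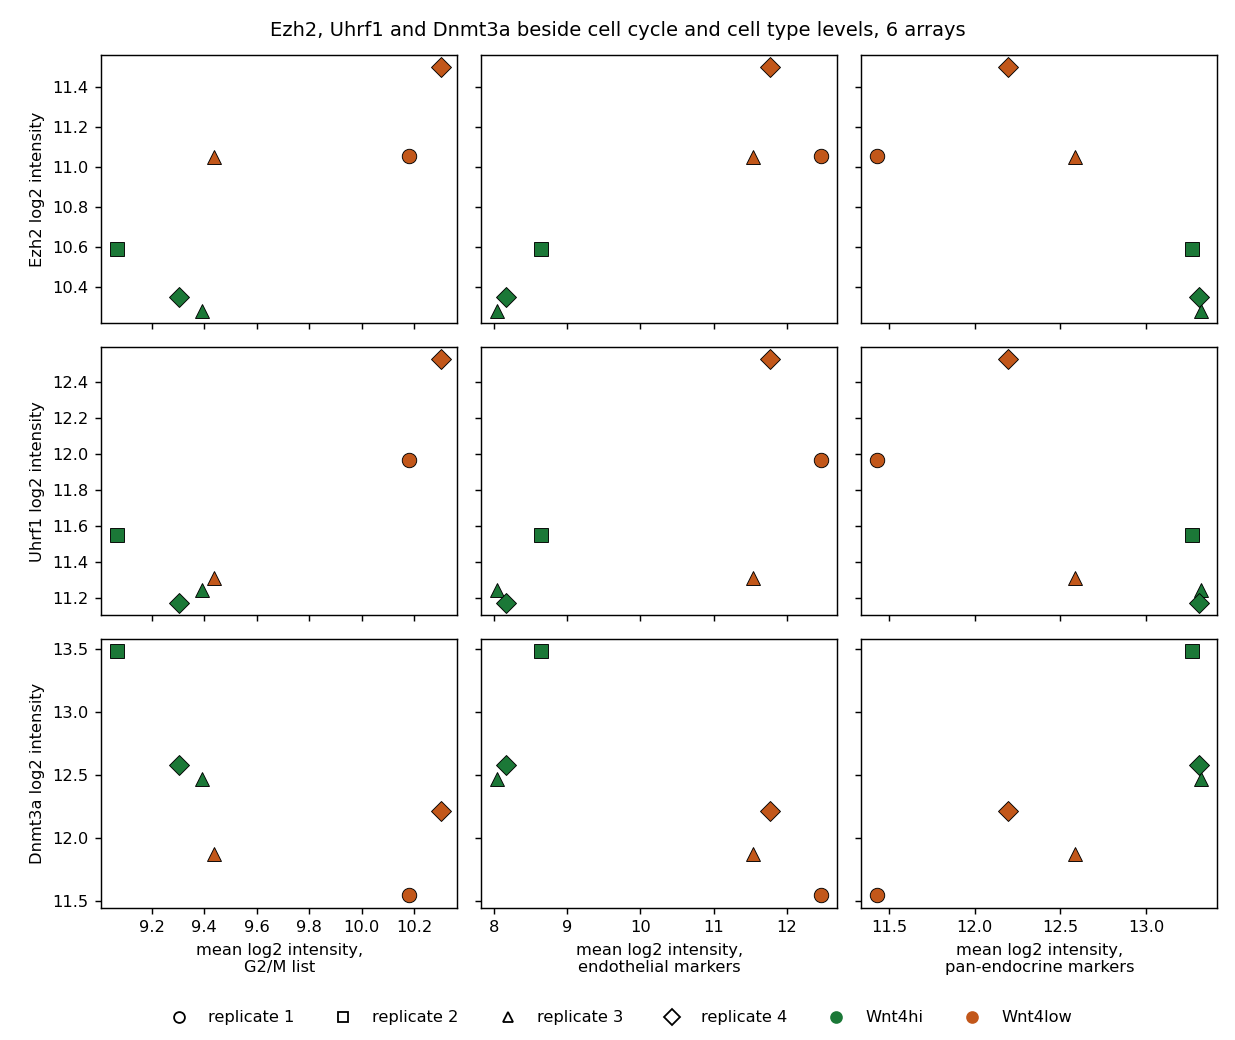
Log2 intensity of Ezh2, Uhrf1 and Dnmt3a (rows, y axis) against the mean log2 intensity of the G2/M list, the endothelial markers and the pan-endocrine markers (columns, x axis) on the 6 arrays. Colours give the fraction and shapes the replicate number. Wnt4low replicate 3 has a G2/M mean of 9.44, just above the Wnt4hi arrays (9.07 to 9.39). On that array Uhrf1 is 11.31, among the Wnt4hi values, and Ezh2 is 11.05, above them.

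Over the 6 arrays, Pearson's r of Ezh2 was 0.93 with the endothelial marker Pecam1, 0.85 with Mki67, 0.80 with Pcna and −0.91 with Ins2. For Uhrf1 these values were 0.75, 0.79, 0.65 and −0.92, and for Dnmt3a −0.71, −0.49, −0.86 and 0.61. They describe 6 arrays in 2 groups that share their slide, and any gene that separates the groups is correlated with any other that does. Among 16154 genes above background on all arrays, the profiles most like Ezh2 were those of Vcl, Nfia and Hspa1b (r of 0.997, 0.997 and 0.996, with 362 genes over 0.9). Those most like Dnmt1, which did not separate the groups, were Ncapd2, Fpr2 and Entpd2 (r of 0.992, 0.982 and 0.978, with 63 genes over 0.9). Ncapd2 encodes a condensin subunit.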

How the data were processed

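RNA was amplified and labelled with the red dye, and the authors deposited the scanner intensity of each spot and a table of log2 values per probe. The intensities are from Agilent Feature Extraction (version 12.0.1.1 in the file headers, 9.1 per the labels). The study's methods name limma for the analysis of the raw files, and do not mention the table separately. Median signals were corrected with the median background by normexp (offset 50) and quantile normalised, as in the study's methods, in limma 3.58.1 (R 4.3.3). Spots flagged as outliers were left out (none of the members'), and spots of a probe were averaged. RefSeq accessions were matched to symbols through a GRCm38.p6 table, for 32994 of 35886 RefSeq probes. The array design names another build, so the table served for names only, and promoters are from RefSeq. The brightest probe stood for a gene, limma compared 3 with 3 arrays over 45616 features, and p-values were adjusted by Benjamini-Hochberg. The labels give a pool of pups for each sample but do not say whether equal numbers mark the same pool, so the fit was unpaired and p-values measure the spread between these pools. The fit was tested on simulated data.

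The members and gene lists were chosen with earlier results of these data known. The genes named are all members with every probe, those of each related list with an unadjusted p under 0.05 (at most 4), and fixed partners, targets and reference genes. The alternatives were other background corrections, normalisations, filters, probe rules and variance models, the authors' table, replicate blocks and leaving out each array. The number of arrays limits the precision. Protein and probe sequences were not used here. The result for 1 of the listed target genes is not reported here.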

Additional observations from a re-analysis of the deposited data

How the results depend on the processing

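Of 19 alternatives, Ezh2 was lower in Wnt4hi with an unadjusted p under 0.05 in all 19 (log2 fold change −0.96 to −0.64). Dnmt3a was above 0 in all 18 that held it and passed in 15, with a value of 0.48 to 1.15. Uhrf1 was below 0 in all 19 and passed in 4, and no member passed an adjusted p of 0.05 in any. All 5 Ezh2 probes were below 0 in every probe-level alternative except without Wnt4low replicate 4, where 4 were. The 19 alternatives for Ezh2 did not all use the same probe. The authors' table held only the probe that changed by −0.31 in the main fit without passing, and gave −0.72 for it. Another alternative picked the probe by its p.

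The number of members lower in Wnt4hi was 2 with the mean of all probes (Uhrf1 at −1.06), with the probe of smallest p (Uhrf1 at −1.50) and with the authors' table (Uhrf1 at −0.87), and 1 to 2 without 1 array. The number higher was 0 with the authors' table, where Dnmt3a, Ezh1 and Suz12 were not matched, 0 with a fixed replicate block (Dnmt3a at 0.48), and 0 to 2 without 1 array. In the authors' table, the column of Wnt4hi replicate 2 correlated at 0.271 with its scanner array over gene-centred values, against 0.843 to 0.872 for the other 5 columns, and the cause was not tested.

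Suz12 turned positive with the processed signal (0.020), the mean of probes (0.16), the probe of smallest p (0.33), the fixed (0.37) and the random (0.019) replicate block, and ranged from −0.40 to 0.45 without 1 array. Dnmt3b turned to 0.058 with the mean of probes. Without 1 array, Ezh1 ranged from −0.025 to 0.29, Dnmt1 from −0.34 to 0.062 and Tet1 from −0.30 to 0.012. The cause of these was not tested. Over the 19 alternatives, the PRC1 genes gave 0 to 3 lower and 0 to 2 higher, and the partners and readers of DNA methylation 0 to 2 lower and 0 to 3 higher. The other PRC2 genes gave 0 to 1 in each direction, as did the trithorax and COMPASS genes. The genes that remove Polycomb marks gave 0 lower and 0 to 1 higher. Over all features, 200 passed an adjusted p of 0.05, 0 to 2 without 1 array and 0 with the fixed replicate block.

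The groups share replicate numbers 3 and 4 only, and the deviations of same-numbered samples from their group means correlated at −0.055 and 0.203 over 28878 features, so the numbers were not taken as pairs. The replicate block as a random effect had a consensus correlation of 0.102 and left Ezh2 at −0.80 and Dnmt3a at 0.93. The number of arrays limits the width of the intervals given.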
